A study of Mus musculus with 3 samples.

Results

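The genes described here encode the proteins of the 2 ribosomes of a mouse cell, the cytosolic ribosome and the mitochondrial ribosome. Members were chosen by gene name alone: names of the forms Rpl and Rps with a number, Rplp0 to Rplp2 and Rpsa made the cytosolic class, and names of the forms Mrpl and Mrps with a number made the mitochondrial class, with pseudogene names and the Rps6k kinases left out. The rule took 161 of 31829 gene names on the array, 86 cytosolic and 75 mitochondrial, measured by 273 of 39429 probes. A symbol in the RefSeq gene table matched 158 of them, and the exceptions were Rpl26l1, Rps3a and Rps4y2. Rps19bp1 fits the name rule but encodes a protein that binds Rps19 and is not a ribosomal protein.

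Hepatocyte RNA of 3 groups was hybridised to 1-colour arrays, with 1 array per group. All groups were wild-type male C57BL/6 mice aged 22 weeks, fasted overnight before collagenase was used to isolate the cells. The anti-VLA-4 mice ate a high-fat diet from 6 weeks of age for 16 weeks and, after the first 10 of those weeks, received an antibody that blocks the leukocyte integrin VLA-4 by intraperitoneal injection 2 times a week for 6 weeks. The HFD-IgG mice had the same diet and control IgG on the same schedule. The standard-diet mice ate a standard diet for 16 weeks, and no injection is recorded for them, so diet and injection cannot be told apart between HFD-IgG and standard diet. How many mice contributed to an array is not stated. RNA of the anti-VLA-4 mice was hybridised on a slide of its own and that of both other groups on a common slide, so antibody and slide cannot be told apart either. With no replicate array there is no test and no p-value, and the spread between mice or preparations is unknown.

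A ribosome has a small subunit, which decodes the mRNA, and a large subunit, which joins the amino acids and holds the tunnel through which the new protein leaves. The cytosolic ribosome makes nearly all proteins of the cell, including the plasma proteins that hepatocytes secrete, while the mitochondrial ribosome makes the few inner-membrane proteins of the respiratory chain and ATP synthase that mitochondrial DNA encodes. Both sets of ribosomal proteins are encoded in the nucleus. Most mRNAs of cytosolic ribosomal proteins begin with a C followed by a run of pyrimidines, the 5′ terminal oligopyrimidine (TOP) tract, through which the mTORC1 kinase pathway controls their translation, and the mRNAs of mitochondrial ribosomal proteins lack it as a class.

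This difference can be read in the promoters that RefSeq gives on build GRCm38.p6, from 250 bases before to 50 after each start, for 129 of the 161 members (63 cytosolic and 66 mitochondrial). A run of at least 8 pyrimidines that begins with C lay within 50 bases of a start in 82.5% of cytosolic genes, 33.3% of mitochondrial genes and 32.0% of all 27025 genes in the table. A run of at least 5 that begins exactly at the start was found in 13 cytosolic genes (20.6%), in 0 of 66 mitochondrial genes and in 3.01% of all genes. The 3 windows below show runs of the longer kind, which here begin shortly before the start and extend across it, printed from 60 bases before to 20 bases after the start with the run in capitals. They were chosen after the matches were seen and belong to Rps6, whose protein is the classical substrate of S6 kinase, to Rplp2 of the stalk that recruits elongation factors, and to Rpl28 of the large subunit.
Rps6 (chr4:86857348-86857427, minus strand): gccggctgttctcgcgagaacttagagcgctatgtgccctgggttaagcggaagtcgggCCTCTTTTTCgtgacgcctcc
Rplp2 (chr7:141447591-141447670, plus strand): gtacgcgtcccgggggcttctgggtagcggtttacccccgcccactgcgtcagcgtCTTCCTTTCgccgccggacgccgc
Rpl28 (chr7:4792905-4792984, plus strand): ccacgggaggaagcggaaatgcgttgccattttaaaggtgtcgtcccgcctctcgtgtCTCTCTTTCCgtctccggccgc
Other motifs were counted on both strands of the whole window. CCGGAA, the core bound by ETS factors, was in 57.6% of mitochondrial and 54.0% of cytosolic genes against 16.7% of all genes. The NRF1 motif (GCGC, any base, TGCGC) was in 18.2% of mitochondrial, 9.52% of cytosolic and 5.19% of all genes. AAGATGGC, the core bound by YY1, was in 16.7%, 9.52% and 3.19% in that order. The 3 mitochondrial windows below, also chosen after the matches were seen, show these letters in capitals on one strand or the other, for Mrpl17 and Mrps18a, which are described further on, and for Mrpl44, an RNase III-like protein of the large subunit.
Mrpl17 (chr7:105811068-105811147, minus strand): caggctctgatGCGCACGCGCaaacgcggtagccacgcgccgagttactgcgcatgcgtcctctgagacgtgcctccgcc
Mrps18a (chr17:46110944-46111023, plus strand): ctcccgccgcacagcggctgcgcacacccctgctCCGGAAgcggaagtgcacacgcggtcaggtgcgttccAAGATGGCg
Mrpl44 (chr1:79775958-79776037, plus strand): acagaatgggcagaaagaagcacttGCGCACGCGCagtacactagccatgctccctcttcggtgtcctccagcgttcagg
These matches describe the letters of a window and show no binding.

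Levels below are the processed signal of a probe divided by its array's 75th percentile over all non-control spots, so a level of 1 is that percentile. Each gene is given by its brightest probe, and a difference is the log2 of one array's level minus that of another. The scanner's own error of such a difference was about 0.20 for bright probes, and it covers error within an array only. For Mrpl34, Mrpl50, Mrps35 and Rpl23, which have 8 to 10 usable spots of a probe on each array, the SD of log2 level over spots was 0.03 to 0.09. A fold of 1.5 is used as a fixed mark of size.

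Nearly all members were measured on every array: 83, 84 and 83 of 86 cytosolic members were well above background in anti-VLA-4, HFD-IgG and standard-diet hepatocytes, and 74 of 75 mitochondrial members were in each. The summed level of the cytosolic class was 5768 in anti-VLA-4, 6854 in HFD-IgG and 7457 in standard-diet hepatocytes. That of the mitochondrial class was 796, 874 and 906 on the same arrays. Both sums were thus lowest on the anti-VLA-4 array and highest on the standard-diet array. The members never well above background were the paralogs Rpl39l and Rpl3l, of which Rpl3l is known from muscle, and Mrpl21.

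Markers of other liver cells differed between the same groups. The summed level of 12 Kupffer cell and macrophage markers was 44.4 in anti-VLA-4, 61.7 in HFD-IgG and 9.69 in standard-diet hepatocytes. The sums were 37.6, 63.7 and 16.2 for 12 sinusoidal endothelial markers and 16.1, 32.3 and 3.42 for 10 stellate cell and fibroblast markers. HFD-IgG exceeded standard diet by at least 1.5-fold for all 12 Kupffer and 11 of 12 endothelial markers, where 27.9% of all genes did. None of either list was at 0 on any array. On the standard-diet array, however, only 10 of the 12 Kupffer, 11 of the 12 endothelial and 4 of the 10 stellate markers were well above background. Folds of the remaining markers over that array are lower bounds. Other lists had sums in another order. The sums were 2.81, 1.37 and 0.591 for 6 neutrophil markers, but the highest one, of the anti-VLA-4 array, is mainly S100a9 (1.77). Against HFD-IgG, 3 of the 6 were higher on the anti-VLA-4 array and 3 lower. The lower ones, Ngp, Cxcr2 and Mmp8, cleared background in HFD-IgG hepatocytes only. The neutrophil sums therefore give no order for these cells. For 8 T and NK cell markers the sums were 19.3, 14.3 and 28.8, but these sums mainly follow Cd4. Cd4 had 15.6 in anti-VLA-4, 10.8 in HFD-IgG and 24.9 in standard-diet hepatocytes. Only 3 of the 8 cleared background in standard-diet hepatocytes. Of the others, Cd3e and Nkg7 were highest there too, whereas Cd3g and Gzma were lowest there. The T and NK sums therefore give no order for these cells. The 11 hepatocyte markers, all well above background throughout, summed to 4747, 4845 and 5053. Single markers differed more between HFD-IgG and standard diet. Cps1, Apoa1 and Hnf4a were 2.20-fold, 1.66-fold and 1.60-fold lower on the HFD-IgG array, while 6 of the 11 were higher there, 0 of them by 1.5-fold. Less RNA per cell and fewer cells of a type cannot be told apart in such bulk RNA, and the part of these other cells in the differences below was not tested. Because the share of spots well above background also differed (62.4%, 66.5% and 57.3%), each class is set beside the non-member genes whose mean level lay between its 10th and 90th percentiles, called genes of its signal range.

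The first comparison asks how ribosomal protein mRNAs differed in hepatocytes of mice on the high-fat diet with IgG from those on the standard diet. The cytosolic class was slightly lower on the HFD-IgG array, while the mitochondrial class was no lower than its signal range. Of 84 cytosolic members compared, 66 were lower on the HFD-IgG array, with a median log2 difference of -0.13, while 46.4% of all genes and 60.1% of the 1531 genes of the signal range were lower, with medians of 0.04 and -0.06. Of 74 mitochondrial members, 51 were lower (median -0.08), against 65.4% of the 4628 genes of their signal range (median -0.12). By more than the scanner error, 27 cytosolic members were lower and 1 higher, where the signal range had 29.8% lower and 17% higher. Of the mitochondrial members 11 were lower and 5 higher by that measure, where their signal range had 38% lower and 16.8% higher. At 1.5-fold, 1 cytosolic member (Rpl10l) and 1 mitochondrial member (Mrpl23) were higher and 0 of either class lower, where all genes had 27.9% higher and 7.79% lower. At the same 1.5-fold mark, in the signal ranges 2.29% and 4.75% were higher and 6.21% and 7.26% lower, for the cytosolic and mitochondrial class in that order. At 2-fold 1 member, Rpl10l, was higher and 0 lower, where all genes had 20.4% higher and 2.42% lower. With the background corrected by the normexp method the class medians were -0.80 and -0.62.

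The lowest cytosolic members in this comparison were Rpsa, Rps24, Rpl12 and Rpl28. Rpsa, a small-subunit protein also known as the laminin receptor precursor, had a level of 104 in anti-VLA-4, 113 in HFD-IgG and 151 in standard-diet hepatocytes. Its log2 difference to standard diet was -0.54 in anti-VLA-4 and -0.41 in HFD-IgG hepatocytes, and its other 3 probes were lower on both high-fat arrays as well. Rpl12, which forms the base of the stalk, measured 44.4 in anti-VLA-4, 52.7 in HFD-IgG and 66.6 in standard-diet hepatocytes, with log2 differences to standard diet of -0.59 in anti-VLA-4 and -0.34 in HFD-IgG. Its second probe gave -0.73 in anti-VLA-4 and -0.38 in HFD-IgG. Both probes of Rpl12 were thus lowest on the anti-VLA-4 array and highest on the standard-diet array. The brighter one, used for the gene, is placed at chr10:29418680-29418739 (mm9), which is not the gene's own chromosome. Rpl28 stood at 32.5 in anti-VLA-4, 33.98 in HFD-IgG and 42.8 in standard-diet hepatocytes and has 1 probe, so it has no such check. At the other end, among members well above background on both arrays, lay Rpl31, Rps27l, Rpl21 and Rps2, at 0.15, 0.14, 0.13 and 0.13, all within the scanner error. All 5 probes of Rpl31, a large-subunit protein near the tunnel exit, were higher on the HFD-IgG than on the standard-diet array. Rps27l, a paralog of Rps27 known as a p53 target, has 1 probe, and Rpl21 was measured only at levels of 0.129, 0.139 and 0.127 in the order anti-VLA-4, HFD-IgG and standard diet.

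Among mitochondrial members, Mrps18b and Mrpl17 were lowest. Mrps18b, 1 of 3 mouse relatives of a single bacterial small-subunit protein, had a level of 21.5 in anti-VLA-4, 20.6 in HFD-IgG and 29.9 in standard-diet hepatocytes, so the high-fat arrays lay together below the standard diet. Its difference was -0.47 for anti-VLA-4 and -0.53 for HFD-IgG over standard diet, and its second probe gave -0.56 and -0.52. The relatives were not lower in the same way: HFD-IgG over standard diet was -0.03 for Mrps18a and 0.01 for Mrps18c, both within the scanner error. Mrps18a was lower on the anti-VLA-4 than on the HFD-IgG array instead (-0.30). Mrpl17, of the large subunit, had 7.27 in anti-VLA-4, 7.50 in HFD-IgG and 10.4 in standard-diet hepatocytes, with log2 differences to standard diet of -0.52 in anti-VLA-4 and -0.48 in HFD-IgG. Mrps2 of the small subunit had 2.47 in anti-VLA-4, 2.89 in HFD-IgG and 3.68 in standard-diet hepatocytes, and both of its probes were lowest in anti-VLA-4. They gave -0.23 and -0.23 for anti-VLA-4 over HFD-IgG and -0.35 and -0.38 for HFD-IgG over standard diet. Mrps5, at 1.27 in anti-VLA-4, 1.15 in HFD-IgG and 1.497 in standard-diet hepatocytes, was lowest on the HFD-IgG array (-0.38 over standard diet).

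Mrpl23 was the highest mitochondrial member and the one past 1.5-fold. This large-subunit protein sits near the exit of the tunnel, and its probe (chr7:149726589-149726647, build mm9) measured 17.3 in anti-VLA-4, 23.1 in HFD-IgG and 14.3 in standard-diet hepatocytes. It was 1.62-fold higher on the HFD-IgG than on the standard-diet array (log2 difference 0.70, scanner error 0.20) and 1.34-fold lower on the anti-VLA-4 than on the HFD-IgG array. It has no second probe. Mrps36, at 4.11 in anti-VLA-4, 5.23 in HFD-IgG and 4.16 in standard-diet hepatocytes, was higher on the HFD-IgG array than on both others, and its second probe showed the same order, with differences of 0.33 and 0.30 for HFD-IgG over standard diet and -0.35 and -0.34 for anti-VLA-4 over HFD-IgG. Mrps36 is known also as a subunit of the alpha-ketoglutarate dehydrogenase complex. Mrps25 rested on its probe: the brighter one gave 0.53 and the dimmer one -0.37 for HFD-IgG over standard diet. Mrpl35 (levels 0.490, 0.612 and 0.524) and Mrpl32 (3.50, 4.53 and 3.88), which the inner-membrane protease matures before it joins the ribosome, followed the order of Mrps36 across the anti-VLA-4, HFD-IgG and standard-diet arrays.

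**Figure D1:**
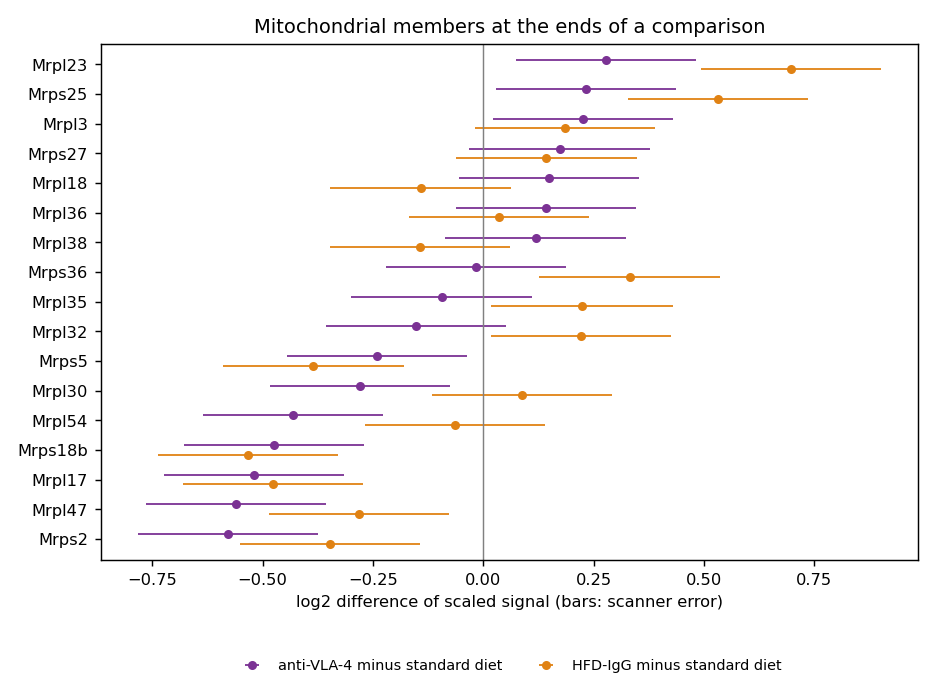
Mitochondrial ribosomal protein genes that were among the 4 highest or 4 lowest of a comparison, as log2 difference to the standard-diet array (horizontal axis) for the anti-VLA-4 array (upper point) and the HFD-IgG array (lower point), with bars for the scanner error of a difference. Mrpl23 and Mrps25 lie highest on the HFD-IgG array, at 0.70 and 0.53, and Mrps18b and Mrpl17 lie below -0.40 on both arrays.

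The second comparison asks how hepatocytes of mice given the antibody on the high-fat diet differed from those of mice given IgG. The cytosolic class was lower on the anti-VLA-4 than on the HFD-IgG array almost throughout: 80 of 84 members were lower, with a median of -0.23, while 55.6% of all genes and 60.3% of the 1534 genes of the signal range were, with medians of -0.06 and -0.07. Of 74 mitochondrial members 57 were lower (median -0.10), where 47.8% of the 4671 genes of their signal range were lower (median 0.02). Set against its own signal range, the cytosolic median was thus 0.16 lower and the mitochondrial median 0.11 lower. Large and small cytosolic subunits differed little, with medians of -0.21 over 51 and -0.25 over 32 members. By more than the scanner error, 47 cytosolic members were lower and 0 higher, and 20 mitochondrial members were lower and 2 higher, beside 26.2% and 18.7% lower and 19.1% and 23.9% higher in the 2 signal ranges. At 1.5-fold, 3 cytosolic members were lower and 0 higher and no mitochondrial member was past the mark, where 23.3% of all genes and 0.913% and 1.93% of the signal ranges were lower and 7.11%, 2.74% and 3.77% higher. At 2-fold 1 member, Rpl10l, was lower and 0 higher, where 16.5% of all genes were lower and 1.9% higher. With normexp background correction the class medians were -0.01 and 0.05, so the direct difference was not seen there, while the cytosolic median stayed below that of its signal range.

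**Figure D2:**
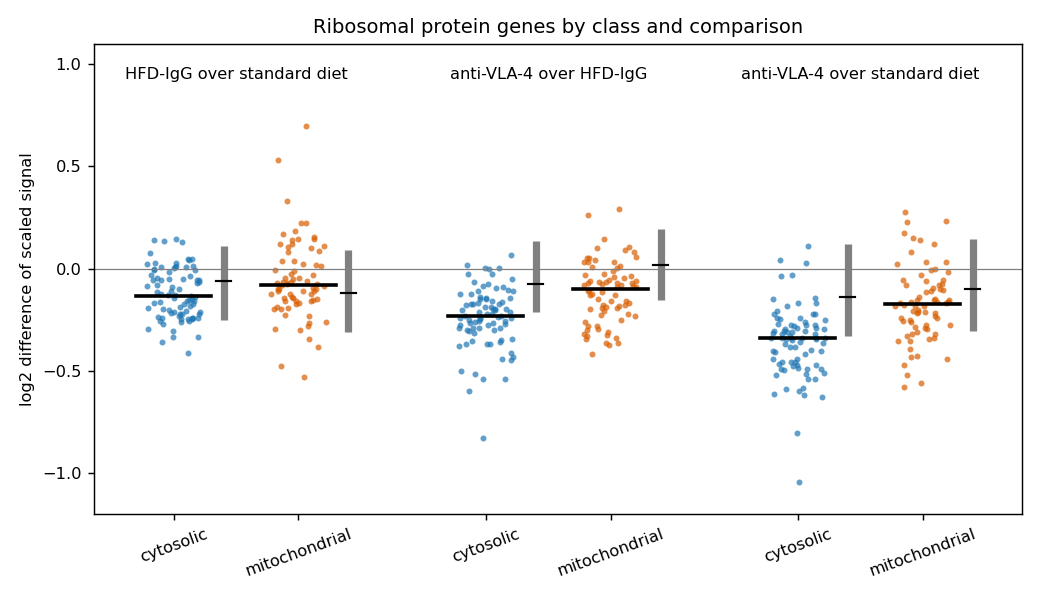
Log2 difference of every member well above background on both arrays (points), by class and comparison, with the class median (thick black line). The grey bar beside each class spans the middle 50% of the non-member genes in its signal range, with their median as a thin line. The cytosolic points lie almost wholly below 0 in both comparisons of anti-VLA-4, with medians of -0.23 and -0.34.

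Rpl4 was the lowest of the members well above background on both arrays. It lines the tunnel of the large subunit, and its single probe (chr9:64026265-64026324, mm9) had a level of 18.96 in anti-VLA-4, 33.7 in HFD-IgG and 39.2 in standard-diet hepatocytes. The anti-VLA-4 array was lowest, 1.78-fold below the HFD-IgG array (log2 difference -0.83) and 2.07-fold below the standard-diet array (-1.05), with the HFD-IgG array between them. Rps3, at the mRNA entry of the small subunit, measured 25.9 in anti-VLA-4, 39.2 in HFD-IgG and 39.7 in standard-diet hepatocytes on its brightest probe (-0.60), but its other probes gave 0.25 and -0.07 for anti-VLA-4 over HFD-IgG. Its place at the low end therefore rests on 1 of 3 probes, and the files give no genome position for the one that was higher. Rpl36, a large-subunit protein, measured 96.96 in anti-VLA-4, 141 in HFD-IgG and 147 in standard-diet hepatocytes, and all 3 of its probes were lower on the anti-VLA-4 than on the HFD-IgG array, at -0.54, -0.48 and -0.39. Rps4x, X-linked in mouse, measured 25.04 in anti-VLA-4, 36.4 in HFD-IgG and 35.9 in standard-diet hepatocytes on a probe at chrX:99380274-99380333 (mm9). Its second probe, which the files place at chr3:112105991-112106050, gave -0.06 against -0.54. The highest members were Rps21, Rps24, Rpl29 and Rpl5, with log2 differences of 0.07, 0.02, 0.00 and 0.00.

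Mitochondrial members past the scanner error lay on both sides in this comparison. Mrpl18 was higher, at 8.32 in anti-VLA-4, 6.80 in HFD-IgG and 7.50 in standard-diet hepatocytes (log2 difference 0.29). It is known in human cells for a role in bringing the small ribosomal RNA of the large subunit into mitochondria. Mrpl38, at 4.03 in anti-VLA-4, 3.36 in HFD-IgG and 3.71 in standard-diet hepatocytes, was higher too (0.26). The lowest were Mrpl23, Mrpl32, Mrpl54 and Mrpl30, between -0.42 and -0.37. Mrpl12, which forms the mitochondrial stalk, had 25.3 in anti-VLA-4, 32.1 in HFD-IgG and 34.4 in standard-diet hepatocytes (-0.34), while Mrpl11 at the base of that stalk had 16.7 in anti-VLA-4, 16.3 in HFD-IgG and 18.7 in standard-diet hepatocytes (0.03). The anti-VLA-4 array was thus low for Mrpl12 and in between for Mrpl11.

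Anti-VLA-4 set against standard diet shares its arrays with both other comparisons and gave the class medians farthest below 0. Of 83 cytosolic members 80 were lower (median -0.34), where 49.3% of all genes and 65.7% of the 1414 genes of the signal range were lower (medians 0.00 and -0.14). Of 74 mitochondrial members 63 were lower (median -0.17), against 61.7% of the 4614 genes of their signal range (median -0.10). At 1.5-fold 8 cytosolic members were lower and 0 higher, and 0 mitochondrial members were past the mark, where 9.42% of all genes and 6.72% and 7.3% of the signal ranges were lower and 16.3%, 6.36% and 6.24% higher. By more than the scanner error 73 of 83 cytosolic members were lower and 0 higher, beside 43.1% lower and 19.2% higher in the signal range, and 32 mitochondrial members were lower and 3 higher, beside 36.9% and 20.6%. At 2-fold 1 member, Rpl4, was lower and 0 higher, where 3.39% of all genes were lower and 7.99% higher. The count of 8 at 1.5-fold was thus near the background, while the count of members below 0 was above it. Rps21, Rpl31 and Rpl21 were the 3 cytosolic members not lower. With normexp background correction 72 cytosolic and 34 mitochondrial members were past 1.5-fold, and with quantile scaling or cyclic loess 2 cytosolic members were.

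Rps28 and Rps26, which line the path of the mRNA where it leaves the small subunit, were low beside Rpl4 in this comparison. Rps28 had 65.5 in anti-VLA-4, 92.8 in HFD-IgG and 115 in standard-diet hepatocytes, with log2 differences of -0.50 for anti-VLA-4 over HFD-IgG and -0.30 for HFD-IgG over standard diet. Rps26 had 48.97 in anti-VLA-4, 63.2 in HFD-IgG and 75.8 in standard-diet hepatocytes. Both have 1 probe. Rps21, the highest, had 9.94 in anti-VLA-4, 9.50 in HFD-IgG and 9.20 in standard-diet hepatocytes, and the 3 arrays lay within the scanner error of each other. Rps29, at 98.4 in anti-VLA-4, 100.4 in HFD-IgG and 101 in standard-diet hepatocytes, hardly differed on its brightest probe, while its other probes gave -0.15 and -0.41 for anti-VLA-4 over standard diet. That brightest probe is placed on a chromosome other than the gene's own.

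**Figure D3:**
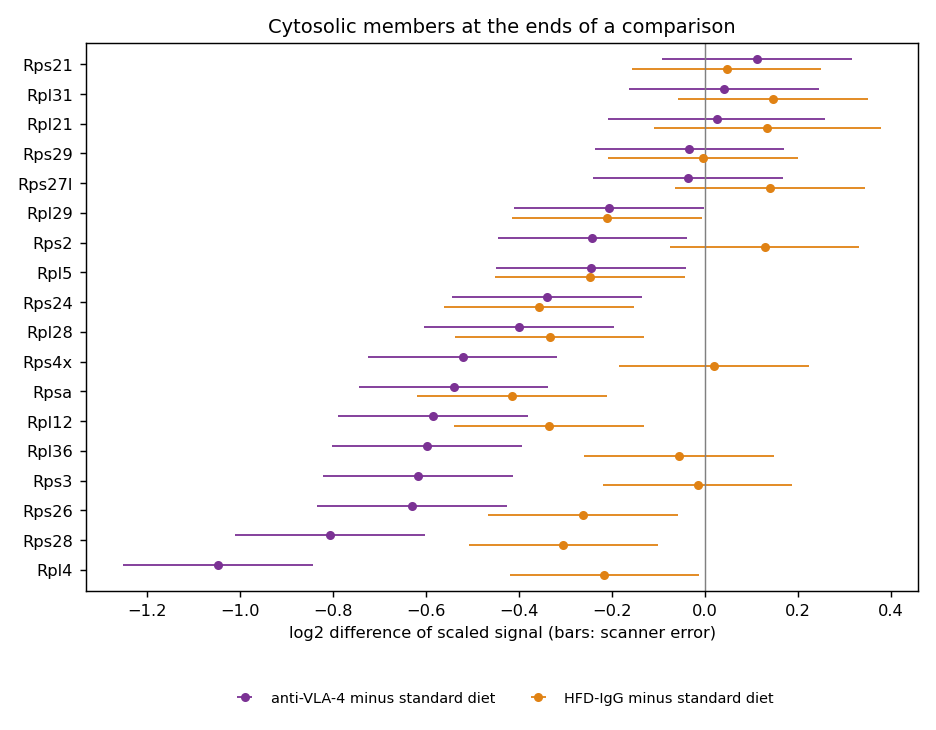
Cytosolic ribosomal protein genes that were among the 4 highest or 4 lowest of a comparison, as log2 difference to the standard-diet array (horizontal axis) for the anti-VLA-4 array (upper point) and the HFD-IgG array (lower point), with bars for the scanner error. Rpl4 and Rps28 lie lowest on the anti-VLA-4 array, at -1.05 and -0.81, and no member lies above 0.15.

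Some members are known for functions beyond protein synthesis. The proteins of Rpl5 and Rpl11 bind a small ribosomal RNA and, when free, the p53 regulator Mdm2. Rpl5 had 17.8 in anti-VLA-4, 17.8 in HFD-IgG and 21.1 in standard-diet hepatocytes, lower on both high-fat arrays by a like amount (-0.25 and -0.25 to standard diet), while Rpl11 had 149 in anti-VLA-4, 181 in HFD-IgG and 181 in standard-diet hepatocytes, low on the anti-VLA-4 array alone. Rps14, linked in humans to the anaemia of 5q loss, had 211 in anti-VLA-4, 281 in HFD-IgG and 289 in standard-diet hepatocytes (-0.41 for anti-VLA-4 over HFD-IgG), and Rps19, linked in humans to Diamond-Blackfan anaemia, had 19.2 in anti-VLA-4, 23.7 in HFD-IgG and 24.7 in standard-diet hepatocytes (-0.30). Rps6 stood at 63.7 in anti-VLA-4, 71.5 in HFD-IgG and 79.2 in standard-diet hepatocytes, and its 3 probes gave -0.31, -0.36 and -0.40 for anti-VLA-4 over standard diet. Rpl13a, a frequent reference gene in qPCR, had 40.2 in anti-VLA-4, 46.1 in HFD-IgG and 53.2 in standard-diet hepatocytes, with -0.40 for anti-VLA-4 over standard diet on both of its probes. Rps27a, made as a fusion with ubiquitin, had 104 in anti-VLA-4, 127 in HFD-IgG and 148 in standard-diet hepatocytes, and a dim probe of it exceeded background clearly in HFD-IgG hepatocytes only. Rpl10, which joins the large subunit last, had 204 in anti-VLA-4, 225 in HFD-IgG and 260.3 in standard-diet hepatocytes, and its 3 probes gave -0.35, -0.11 and -0.16 for anti-VLA-4 over standard diet.

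The stalk proteins show how much a value can rest on the probe. Rplp1 had 79.4 in anti-VLA-4, 89.6 in HFD-IgG and 101 in standard-diet hepatocytes and Rplp2 had 113 in anti-VLA-4, 129 in HFD-IgG and 141 in standard-diet hepatocytes, with differences of -0.34 and -0.32 for anti-VLA-4 over standard diet. Rplp0, the core of the stalk, has 2 probes that overlap at 1 locus of chromosome 5. Their 53 shared bases are printed with the 5 letters that differ in capitals, and the files do not say which letters the mRNA has.
Rplp0, brightest probe (chr5:116013404-116013463, mm9): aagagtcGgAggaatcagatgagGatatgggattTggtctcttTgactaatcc
Rplp0, overlapping probe (chr5:116013397-116013456, mm9): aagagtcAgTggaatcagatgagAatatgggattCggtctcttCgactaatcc
The brightest probe had 122 in anti-VLA-4, 140.2 in HFD-IgG and 136 in standard-diet hepatocytes, with -0.15 for anti-VLA-4 over standard diet and 0.05 for HFD-IgG over standard diet. The overlapping probe had 48.3 in anti-VLA-4, 61.2 in HFD-IgG and 72.3 in standard-diet hepatocytes, with -0.58 and -0.24. The remaining Rplp0 probe gave -0.38 and -0.21. The anti-VLA-4 array was the lowest of the 3 on each probe, whereas HFD-IgG and standard diet changed order between them.

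Paralogs were mostly lower along with their partner. The differences for anti-VLA-4 over standard diet were -0.32 for Rpl22 and -0.31 for Rpl22l1, -0.45 for Rpl36a and -0.24 for Rpl36al, -0.28 for Rps27 and -0.04 for Rps27l, and -0.28 for Rpl7 and -0.49 for Rpl7l1. Rps27l was the one of these within the scanner error of 0. Rpl3 had 31.7 in anti-VLA-4, 33.7 in HFD-IgG and 35.01 in standard-diet hepatocytes, and Rpl39 had 29.6 in anti-VLA-4, 35.9 in HFD-IgG and 39.2 in standard-diet hepatocytes, while their paralogs Rpl3l and Rpl39l were not well above background. Rpl10l, a paralog of Rpl10 known from testis, exceeded background clearly in HFD-IgG hepatocytes only, at a level of 0.141. It was at least 5.50-fold higher there than on the standard-diet array and at least 5.49-fold lower on the anti-VLA-4 than on the HFD-IgG array, and its second probe was not well above background on any array. Probes of near-identical copies can share their target, so the paralogs are uncertain between copies.

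The mitochondrial members with named roles did not differ alike. Mrps12, of the decoding site, had 18.7 in anti-VLA-4, 19.8 in HFD-IgG and 18.7 in standard-diet hepatocytes, and Mrpl45, which anchors the ribosome to the inner membrane, had 5.55 in anti-VLA-4, 5.69 in HFD-IgG and 5.24 in standard-diet hepatocytes. Both lay within the scanner error in each comparison. Mrps30, which despite its name belongs to the large subunit, had 3.79 in anti-VLA-4, 3.96 in HFD-IgG and 4.41 in standard-diet hepatocytes. Mrpl41, also of the large subunit, had 10.8 in anti-VLA-4, 11.3 in HFD-IgG and 12.1 in standard-diet hepatocytes, and Mrpl28 of the same subunit had 3.06 in anti-VLA-4, 3.30 in HFD-IgG and 3.44 in standard-diet hepatocytes. The RNase III-like Mrpl44 had 2.61 in anti-VLA-4, 2.76 in HFD-IgG and 2.96 in standard-diet hepatocytes. All 4 were lowest on the anti-VLA-4 array and highest on the standard-diet array. For Mrpl41, Mrpl28 and Mrpl44 even the difference between those arrays lay within the scanner error. Mrps34, a small-subunit protein, had 24.5 in anti-VLA-4, 30.5 in HFD-IgG and 32.3 in standard-diet hepatocytes and differed most among them, at -0.40 for anti-VLA-4 over standard diet. Mrpl3 (0.23) and Mrps27 (0.17), an RNA-binding protein of the small subunit, were among the 4 highest in that comparison, and Mrpl47 was among the lowest (-0.56, with -0.51 on its second probe).

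Counting probes well above background on both arrays, Rps24 was the one member whose probes parted by more than 2-fold in HFD-IgG over standard diet, and the sequences show where they lie. Its mRNA is alternatively spliced at the end of the coding region, and the gene is linked in humans to Diamond-Blackfan anaemia. The first probe is listed for transcript variant 1 only, and its 60 bases span chr14:25312695-25315015 (mm9, plus strand), so it lies across spliced exons. Its first 51 bases are printed, with the first stop triplet in the frame of base 1 in capitals. The other probes are listed for all 3 variants. One lies upstream at chr14:25311190-25312666 and is printed whole, and the other lies at the 3′ end at chr14:25315021-25315080, of which 30 bases around the polyadenylation motif AATAAA (capitals) are shown.
Rps24, variant 1 probe: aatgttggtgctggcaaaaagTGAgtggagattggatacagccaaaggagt
Rps24, upstream probe: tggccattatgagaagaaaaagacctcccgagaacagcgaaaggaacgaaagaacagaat
Rps24, 3′ end probe: tctgagaggacaAATAAActaaaaagcttc
The variant 1 probe had a level of 2.74 in anti-VLA-4, 4.49 in HFD-IgG and 1.23 in standard-diet hepatocytes. It was 3.64-fold higher on the HFD-IgG than on the standard-diet array (log2 difference 1.87), 1.64-fold lower on the anti-VLA-4 than on the HFD-IgG array (-0.71) and 2.22-fold higher on the anti-VLA-4 than on the standard-diet array. The upstream probe had 11.6 in anti-VLA-4, 16.5 in HFD-IgG and 16.9 in standard-diet hepatocytes, with HFD-IgG and standard diet alike and anti-VLA-4 lower. The 3′ end probe, the brightest and the one used for the gene, had 85.2 in anti-VLA-4, 84.2 in HFD-IgG and 108 in standard-diet hepatocytes, with both high-fat arrays below the standard diet. Among 4126 probes within 1 log2 unit of the variant 1 probe's mean level, itself included, 1.38% were at least as far higher on the HFD-IgG array. Among the 295 of them within 5 percentage points of its purine share, 1.02% were. For anti-VLA-4 over standard diet the shares were 2.76% and 3.73%. The probe was singled out for its difference in these data, so the shares only describe how far it lies and test nothing. The marker sums of Kupffer, endothelial and stellate cells given above have the same order over the arrays as the variant 1 probe, and their part in its difference was not tested.

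**Figure D4:**
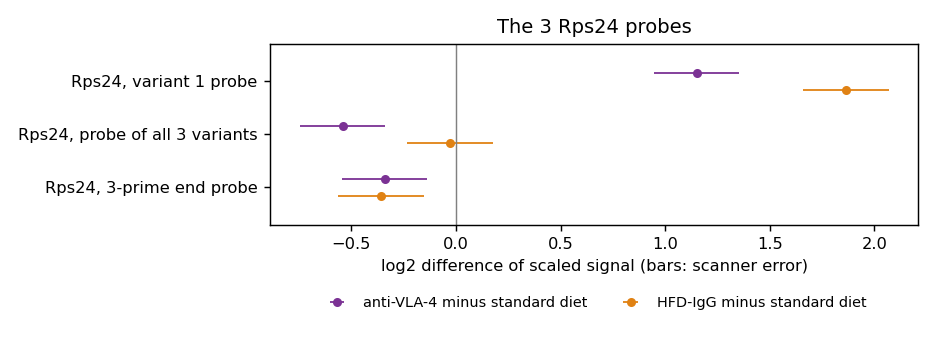
Log2 difference to the standard-diet array (horizontal axis) of the 3 Rps24 probes on the anti-VLA-4 array (upper point of each row) and the HFD-IgG array (lower point), with bars for the scanner error. The variant 1 probe lies at 1.15 and 1.87, and the other probes lie below 0 on both arrays.

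In most cytosolic genes with several probes, all probes had the same sign. Because most probes of the class were lower in each comparison, shared signs are common even between unrelated probes. The counts by gene therefore do not show that probes of a gene agree. In anti-VLA-4 over HFD-IgG, all probes had the same sign in 43 of 53 cytosolic genes with several probes well above background, in 49 of 53 when anti-VLA-4 was set against standard diet, and in 32 of 53 for HFD-IgG over standard diet. Counted by probe, 159 of 171 cytosolic and 73 of 94 mitochondrial probes were lower on the anti-VLA-4 than on the HFD-IgG array. No member had 1 probe at least 1.5-fold higher and another at least 1.5-fold lower. Of 178 cytosolic probes the files place 9 on a chromosome other than the gene's own in RefSeq, and their median for anti-VLA-4 over HFD-IgG was -0.25, against -0.23 for the 163 on the gene's own. Of the 86 cytosolic probes used for a gene, 2 lie on another chromosome, those of Rpl12 and Rps29. All 95 mitochondrial probes lie on the gene's own chromosome.

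Genes that work with the ribosome were read from lists chosen for their function. Of 22 further genes whose mRNAs are known to carry a TOP tract, mostly translation factors, 18 were lower on the HFD-IgG than on the standard-diet array (median -0.20) and 20 lower on the anti-VLA-4 than on the HFD-IgG array (median -0.20). Of all genes 46.4% and 55.6% were lower in these comparisons, and of genes above the 75th percentile on both arrays 63.8% and 50.1%. With normexp background correction the list's median for anti-VLA-4 over HFD-IgG was 0.057, above 0. Eif3k, a subunit of an initiation factor, had 24.5 in anti-VLA-4, 33.4 in HFD-IgG and 38.9 in standard-diet hepatocytes, and Eef1a1, the elongation factor that delivers tRNA, had 112 in anti-VLA-4, 116 in HFD-IgG and 123 in standard-diet hepatocytes. Vim, which encodes a filament of mesenchymal cells, went against the list at 0.717 in anti-VLA-4, 1.07 in HFD-IgG and 0.0891 in standard-diet hepatocytes, the order of the stellate cell and fibroblast markers. The 40 genes of ribosome assembly behaved otherwise. Of these, 35 were lower on the HFD-IgG than on the standard-diet array with a median of -0.44, 14 of them by at least 1.5-fold, beside 7.79% of all genes, and in anti-VLA-4 over HFD-IgG 22 were lower and 18 higher with a median of -0.01. Nop56, a core protein of the particles that methylate ribosomal RNA, was the lowest, at 3.47 in anti-VLA-4, 2.62 in HFD-IgG and 5.91 in standard-diet hepatocytes (2.25-fold lower on the HFD-IgG than on the standard-diet array). Nop14 of the small-subunit precursor had 0.412 in anti-VLA-4, 0.329 in HFD-IgG and 0.634 in standard-diet hepatocytes, while Rrp12 had 0.0552 in anti-VLA-4, 0.192 in HFD-IgG and 0.107 in standard-diet hepatocytes, highest on the HFD-IgG array. The assembly list was thus low on both high-fat arrays alike, whereas the ribosomal proteins themselves were lowest on the anti-VLA-4 array.

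The mitochondrial counterparts were measured too. Beside them, 46.4% of all genes and 63.8% of genes above the 75th percentile on both arrays were lower on the HFD-IgG than on the standard-diet array. For anti-VLA-4 over HFD-IgG these shares were 55.6% and 50.1%. Of 7 proteins of the mitochondrial ribosome under other names, 4 were lower on the HFD-IgG than on the standard-diet array (median -0.03) and 5 lower on the anti-VLA-4 than on the HFD-IgG array (median -0.11), with Dap3, a small-subunit GTP-binding protein known also from cell death, at 13.1 in anti-VLA-4, 14.00 in HFD-IgG and 11.5 in standard-diet hepatocytes. Of 10 assembly factors 8 were lower on the HFD-IgG than on the standard-diet array (median -0.27), beside the 46.4% of all genes and 63.8% of genes above the 75th percentile given above, with Ddx28, an RNA helicase, at 1.43 in anti-VLA-4, 1.17 in HFD-IgG and 1.70 in standard-diet hepatocytes, and 4 were lower on the anti-VLA-4 array than on it (median 0.09). The 29 mitochondrial translation factors had medians of 0.03 and 0.01 in these comparisons. Oxa1l, which inserts new proteins into the inner membrane, was among the lowest on the HFD-IgG array, at 9.96 in anti-VLA-4, 9.23 in HFD-IgG and 12.7 in standard-diet hepatocytes.

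**Figure D5:**
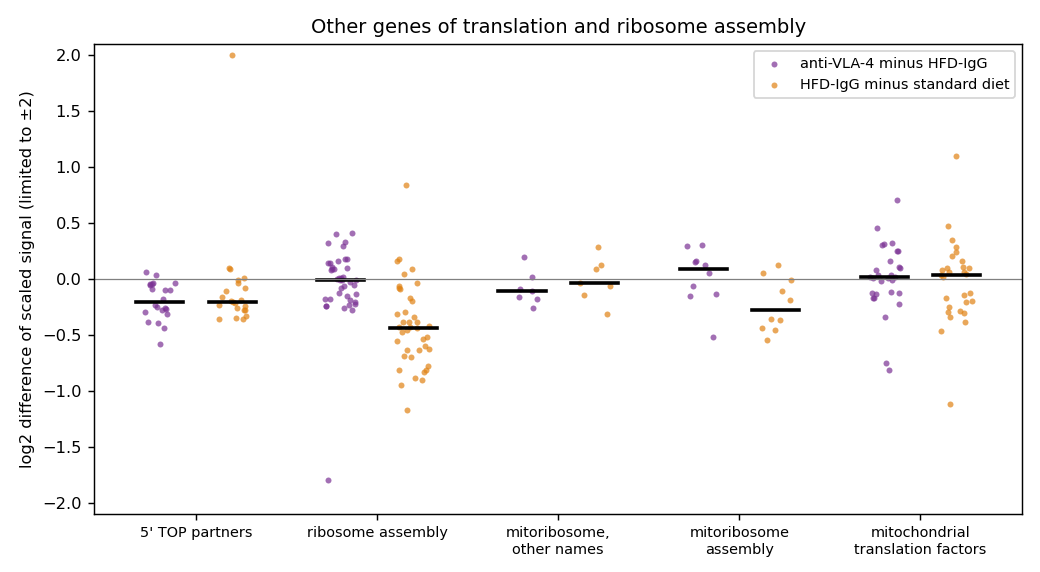
Log2 differences (vertical axis) of genes in 5 lists of translation and ribosome assembly, each for anti-VLA-4 minus HFD-IgG (left) and HFD-IgG minus standard diet (right), with the list median as a black line. Vim, at 3.59, is drawn at the limit of 2. The assembly list has medians of -0.01 and -0.44.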

How the data were processed

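Hepatocyte RNA was measured on 3 single-colour Agilent arrays. Per the submitters' processing notes, Agilent Feature Extraction (version 11.0.1.1) made the deposited spot intensities, with background subtraction and detrending per the file headers. The authors' value table gives a ratio, the processed signal over the array's 75th percentile (largest relative deviation 2e-08 from the scanner files), with column medians of 0.81, 0.80 and 0.79 for anti-VLA-4, HFD-IgG and standard diet, and 0 of its columns were unmatched. Per the file headers, spot flags (other values) were set in the same software.

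Levels were the processed signal over the 75th percentile, which was 514, 500.3 and 574 on these arrays. Flagged spots were left out, spots of a probe averaged and the brightest probe of a gene name used. Genes entered a comparison if 1 or both of its arrays showed them well above background. A fold against an array where it was not is a lower bound, taken against its own signal or, if higher, the weakest signal that exceeded background on that array. No spot was saturated (0 of 43020). Named members were the 4 highest and 4 lowest of a class in each comparison, among those well above background on both arrays, and members with set roles. From each list of related genes the 2 highest and 2 lowest could be named. The members and lists were chosen with earlier results of these data known. With 1 array per group nothing could be tested, and the number of arrays limits the precision. The steps were tested on simulated data. Sequences are those of the files (mm9) or of RefSeq (GRCm38.p6). Alternatives were other scalings, background correction, filters, probe choices, a 2-fold threshold and the deposited table. Computation used limma 3.58.1 in R 4.3.3, and Python 3.11.15 with pandas 2.3.3, numpy 2.4.6, matplotlib 3.10.9 and scipy 1.17.1.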

Additional observations from a re-analysis of the deposited data

How the results depend on the processing

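The class medians kept their sign under every alternative tried except the mitochondrial one, which was 0.025 with cyclic loess for HFD-IgG over standard diet and 0.054 with normexp for anti-VLA-4 over HFD-IgG. The cytosolic median lay below that of its signal range in 10 of 10 alternatives in each comparison, and the mitochondrial median in 1, 10 and 10 of 10 for HFD-IgG over standard diet, anti-VLA-4 over HFD-IgG and anti-VLA-4 over standard diet. Normexp moved the class medians most in each comparison and shifted the median of all genes by 0.42 for HFD-IgG over standard diet and 0.27 for anti-VLA-4 over standard diet. For anti-VLA-4 over HFD-IgG it shifted that median by -0.074, against -0.14 with no filter, 0.11 with quantile scaling and 0.10 with the purine limit. The cytosolic and mitochondrial medians were then -0.80 and -0.62 for HFD-IgG over standard diet (cytosolic minus mitochondrial -0.18), -0.0083 and 0.054 for anti-VLA-4 over HFD-IgG, and -0.81 and -0.55 for anti-VLA-4 over standard diet. Members past 1.5-fold were then 76 and 43, 0 and 0, and 72 and 34 in these comparisons. Cyclic loess gave a cytosolic median of -0.22 for anti-VLA-4 over standard diet. Counts of cytosolic members past the mark were 0 with the filter on all arrays, with the deposited table and with probes of at most 50% purines and 2 with the mean over probes for HFD-IgG over standard diet. They were 6 with the mean over probes, 1 with the purine limit and 1 at 2-fold for anti-VLA-4 over HFD-IgG, and 2 with quantile scaling, 2 with cyclic loess, 3 with the purine limit and 1 at 2-fold for anti-VLA-4 over standard diet. Mitochondrial counts were 2 with quantile scaling, cyclic loess or no filter and 0 with the purine limit or at 2-fold for HFD-IgG over standard diet, 1 with no filter for anti-VLA-4 over HFD-IgG, and 2 with the median of bright probes set to 0, 1 with the mean over probes and 1 with the purine limit for anti-VLA-4 over standard diet. Single genes changed sign: Mrps25 was at -0.37 and 0.47 with the purine limit for HFD-IgG over standard diet and anti-VLA-4 over HFD-IgG, and Rps24 at 0.49 and Rps27a at 0.73 with the mean over probes for HFD-IgG over standard diet. For anti-VLA-4 over HFD-IgG the median of the TOP mRNA list was 0.057 and that of mitochondrial ribosome proteins under other names 0.020 with normexp, and that of the mTORC1 list -0.024 with the mean over probes. List medians within 0.1 of 0 changed sign under some alternatives as well. That limit of 0.1, below which a sign change of a median was not counted as a reversal, and the alternatives for the lists and without Rps19bp1 were chosen after seeing the data. The cause of these differences was not tested. No paired analysis was possible because each group has 1 array. No replicate could be left out. Antibody and slide cannot be told apart, and the arrays' error says nothing of the spread between mice.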

Other observations

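Genes of the pathway that controls translation of TOP mRNAs were read in the same way. The list of 14 genes held mTORC1, its regulators and targets, and also Larp4, Myc and Max. Of the 14, 12 were lower on the HFD-IgG than on the standard-diet array (median -0.25). On the anti-VLA-4 array 5 were lower than on the HFD-IgG array (median 0.20, but -0.024 with the mean over probes). Of all genes 46.4% and 55.6% were lower in these comparisons, and of genes above the 75th percentile on both arrays 63.8% and 50.1%. Myc, which encodes a transcription factor of ribosome synthesis, had 0.102 in anti-VLA-4, 0.0851 in HFD-IgG and 0.234 in standard-diet hepatocytes, and Eif4ebp1, the translation repressor that mTORC1 inactivates, had 11.1 in anti-VLA-4, 12.8 in HFD-IgG and 16.4 in standard-diet hepatocytes. Tsc2, an inhibitor of mTORC1, had 0.0967 in anti-VLA-4, 0.304 in HFD-IgG and 0.0384 in standard-diet hepatocytes, against the direction of the list.

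Ribosomal protein genes often serve as references in qPCR, so 12 common reference genes were set beside them. Of these, 10 were lower on the HFD-IgG than on the standard-diet array (median -0.21) and 10 lower on the anti-VLA-4 than on the standard-diet array (median -0.27), where 63.8% and 62.1% of genes above the 75th percentile and 46.4% and 49.3% of all genes were lower. In anti-VLA-4 over HFD-IgG 7 of the 12 were lower, with a median of -0.05, beside a cytosolic class median of -0.23. Actb had 135 in anti-VLA-4, 157 in HFD-IgG and 113 in standard-diet hepatocytes, and Hprt had 11.01 in anti-VLA-4, 11.7 in HFD-IgG and 16.95 in standard-diet hepatocytes, so these common references differed in opposite directions between the high-fat and standard-diet arrays.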
